A study of Mus musculus with 18 samples.

Results

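A group of 58 genes that act in mitosis was followed through 18 bulk RNA libraries of mouse duodenal epithelium. The members were taken by name, as mitotic kinases and cyclins, checkpoint proteins, kinetochore and centromere proteins, spindle motors, condensin subunits and cytokinesis proteins, and all 58 were found among the 18838 genes of the deposited tables. The libraries came from 3 WT and 3 Mtgr1-/- mice of 8 to 12 weeks, the latter labelled as lacking the co-repressor MTGR1, in a model of whole-body loss and not of loss in 1 cell type. From each mouse, RNA was taken from freshly isolated duodenal crypts (day 0), from enteroids after 24 h (day 1) and from enteroids after 72 h (day 3), grown in Matrigel with the same growth factor medium for both genotypes. Crypts are the glands that hold the stem and transit-amplifying cells of the intestine, and enteroids are the 3-dimensional cultures that grow from them. Same-numbered libraries of a genotype were labelled as the same mouse, so values at day 1 and day 3 come from the same 6 mice as the crypts.

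Cells entering mitosis switch on cyclin B with CDK1, condense their chromosomes with condensin, build a bipolar spindle with kinesin motors, and attach each centromere to it through the kinetochore. The spindle assembly checkpoint holds the cell until every kinetochore is attached, after which the anaphase-promoting complex (APC/C) with CDC20 removes cyclin B and securin, and the central spindle guides cytokinesis. Most of these genes are transcribed mainly in the G2 and M phases, and in the intestine their mRNAs mark the dividing cells of the crypt.

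In 16 libraries whose reads were recovered, between 22035316 and 28621990 reads lay on genes. Values are normalized counts, that is counts divided by 1 factor per library within the table of a time point, and differences are on the log2(normalized count + 1) scale, Mtgr1-/- over WT. All genes whose mean reached 10 entered the limma fit, and all 58 members did so at each time point. A call is a Benjamini-Hochberg adjusted p below 0.05. The mRNA of the targeted gene (Cbfa2t2) was not lower in the libraries labelled Mtgr1-/-, at a log2 fold change of -0.05 in crypts (adjusted p = 0.917, limma), 0.37 at day 1 (0.0557) and 0.06 at day 3 (0.686). The part of the gene that was deleted was not given in the sources used here, so this count may not check the label, and genotypes are given as labelled. The epithelial genes Epcam and Cdh1 were high in all 18 libraries, and marker sums of mesenchymal, endothelial and enteric neuron and glia genes were at most 594, 242 and 60.9 in any library. At day 1 and day 3, each of these sums was lower in every library labelled Mtgr1-/- than in every WT library. Mesenchymal sums were 177 to 269 in WT against 44.6 to 84.9 at day 1, and 171 to 202 against 37.8 to 152 at day 3. In crypts the mesenchymal and endothelial ranges overlapped. One crypt library stood apart: WT mouse 3 had 3795 normalized counts of the leukocyte gene Ptprc, against 144 to 450.3 in the other 5 crypt libraries. In enteroids, Ptprc was highest in mouse 3 of the group labelled Mtgr1-/-, at 187.5 (day 1) and 129.1 (day 3). WT mouse 3 had 148.3 at day 1. Immune marker sums in enteroids reached 844 at day 1 and 845 at day 3, both in the group labelled Mtgr1-/-. The part of these non-epithelial markers in the member values was not tested.

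In freshly isolated crypts, no member was called in either direction. In enteroids, nearly all of them were lower in the libraries labelled Mtgr1-/-, to about the same extent from gene to gene. At day 1, 54 of 58 were called lower and 0 higher, where 28.9% of all 12587 tested genes were called lower and 30.0% higher. At day 3 it was again 54 and 0, the same 54 genes, where 29.1% of 12782 were called lower and 29.9% higher. The median log2 fold change of the members was -0.07 in crypts, -1.04 at day 1 and -0.89 at day 3, against 0.01, -0.01 and 0.00 over all genes tested. Without the mouse number in the fit, the members not called at either day were Anln, Kif23, Pttg1 and Fzr1. With the mouse number fitted as a block, Anln and Kif23 were also called lower at day 1, which made 56 members. In bulk RNA, fewer dividing cells and less of these mRNAs per dividing cell cannot be told apart. Enterocyte markers moved the other way: 14 of 15 were called higher and 1 lower at day 1, and 14 higher and 0 lower at day 3, in the libraries labelled Mtgr1-/-. They had summed levels of 743116 to 1178145 against 342518 to 450205 in WT at day 1 and 549557 to 978584 against 249248 to 288650 at day 3, and none of the 15 was at 0. Their part in the fall of the members was not tested.

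**Figure D1:**
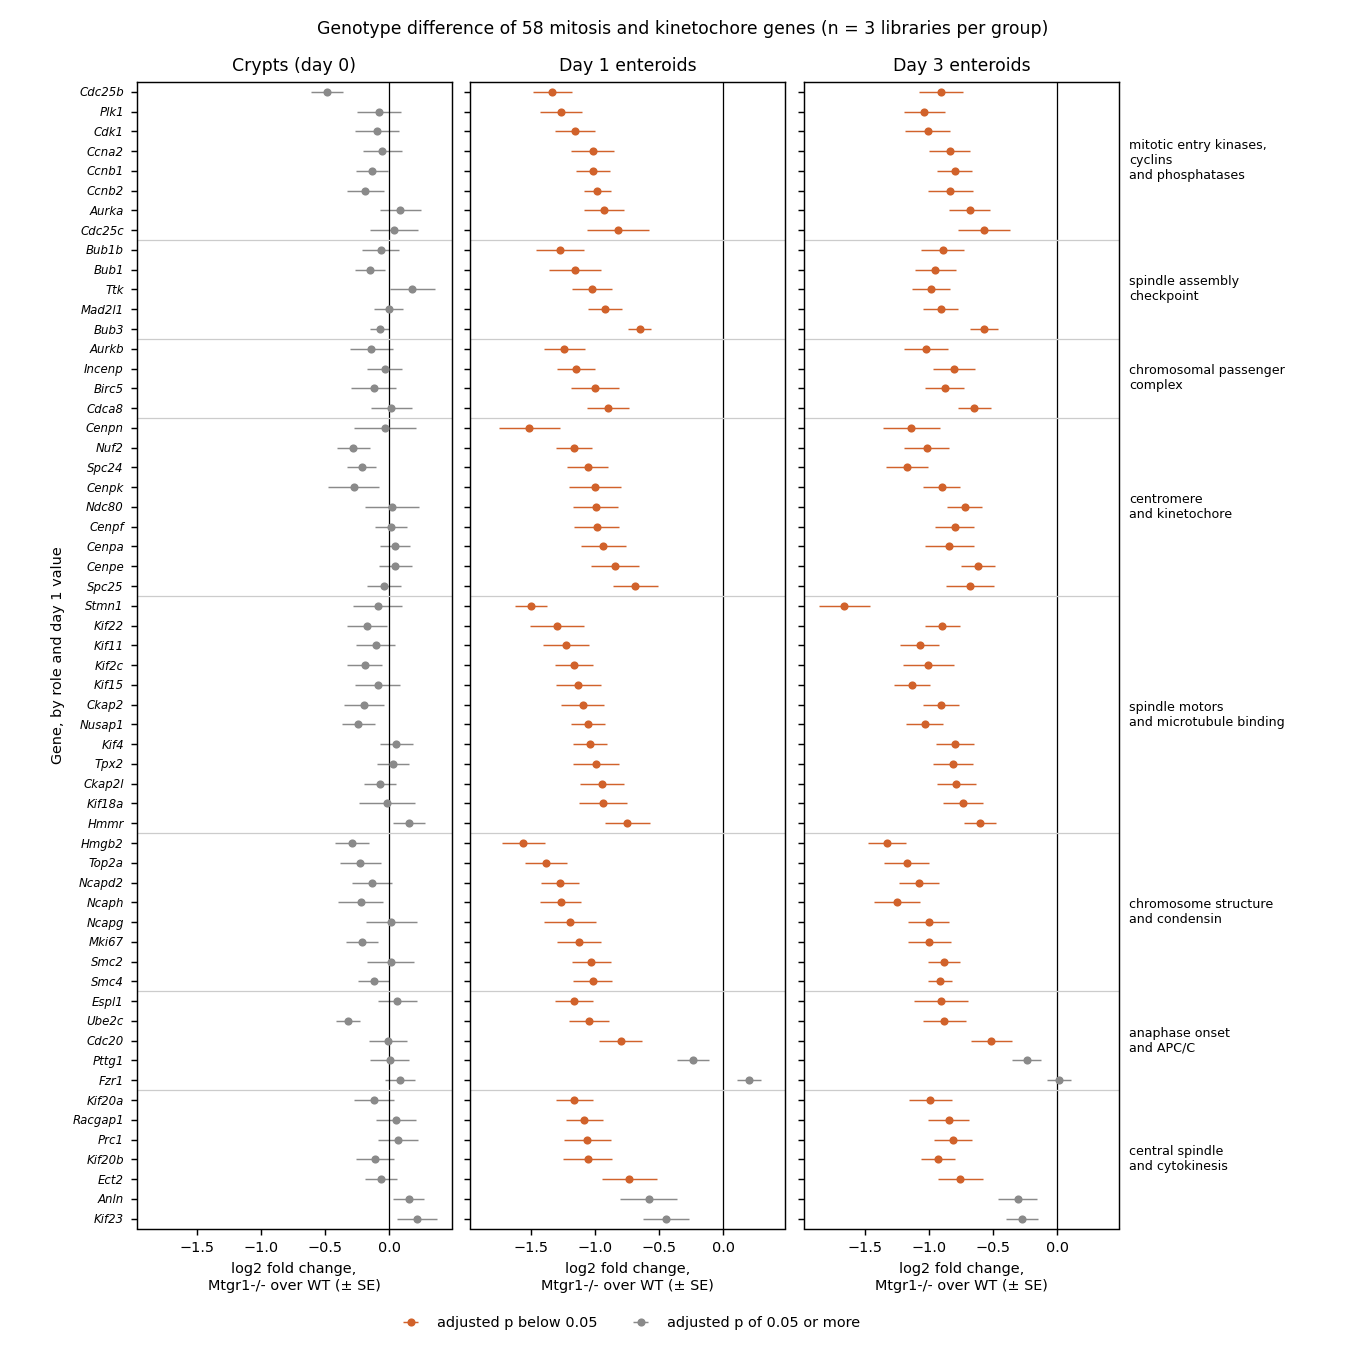
Log2 fold change (libraries labelled Mtgr1-/- over WT, with SE, n = 3 per group) of each of the 58 genes in crypts, day 1 and day 3, grouped by role and ordered by the day 1 value. Orange points were called (adjusted p below 0.05, limma) and gray points were not. The crypt values sit between -0.49 and 0.22, and in enteroids 54 genes lie left of 0 with a call, with Anln, Kif23, Pttg1 and Fzr1 in gray.

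At day 1, 44 of 58 members lay within 0.25 of the member median, and at day 3 also 44. The day 1 range ran from -1.56 for Hmgb2 to 0.20 for Fzr1, and the day 3 range from -1.66 for Stmn1 to 0.01 for Fzr1 again. Every library labelled Mtgr1-/- lay below every WT library for 57 members at day 1, where 33.9% of all tested genes did so, and for 55 at day 3, where 34.2% did. Falls of at least 2-fold with a call numbered 36 members at day 1 (10.6% of all genes) and 16 at day 3 (8.91%), and 0 in crypts (2.5%).

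**Figure D2:**
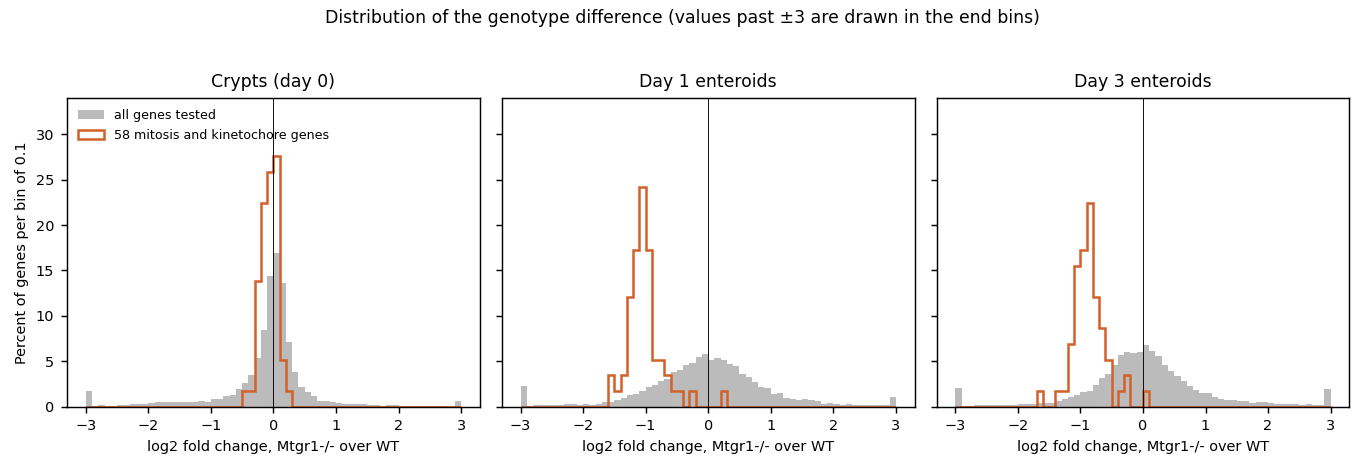
Percent of genes in bins of 0.1 of the log2 fold change (libraries labelled Mtgr1-/- over WT) for all genes tested (gray) and for the 58 mitosis and kinetochore genes (orange line), at each time point. The member outline sits over the gray one in crypts and stands near -1 at day 1 and day 3, with medians of -1.04 and -0.89.

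As these genes moved together, promoters are shown for 7 members of different roles. They were picked only from members with a single promoter that held both motifs below before its start, so they do not represent all members. Genes of the G2 and M phases commonly carry, close to the start site, a cell cycle genes homology region (CHR), a site of the DREAM complex, and CCAAT boxes, the sites of NF-Y. RefSeq promoters (GRCm38.p6, 250 bases before to 50 after the start) were matched for 49 of 58 members, and none was matched for Ccna2, Cdc25c, Aurkb, Incenp, Spc24, Tpx2, Stmn1, Smc4 and Kif20a. The CHR was searched as TTTGAA and TTCGAA and the CCAAT box as CCAAT, each on both strands. The stretches below are 5′ to 3′ on the strand of the gene, with both motifs in capitals, and end 1 to 94 bases before the start. Cdk1 (the kinase of mitotic entry) is at chr10:69352913-69353135, minus strand. Bub1b (a checkpoint protein) is at chr2:118598008-118598117, plus strand. Cenpn (a reader of the centromere) is at chr8:116921707-116921739, plus strand. Kif11 (the kinesin that separates the poles) is at chr19:37376322-37376381, plus strand. Mki67 (the Ki-67 antigen) is at chr7:135716457-135716582, minus strand. Cdc20 (the APC/C activator) is at chr4:118437344-118437411, minus strand. Espl1 (separase) is at chr15:102296234-102296286, plus strand.
Cdk1: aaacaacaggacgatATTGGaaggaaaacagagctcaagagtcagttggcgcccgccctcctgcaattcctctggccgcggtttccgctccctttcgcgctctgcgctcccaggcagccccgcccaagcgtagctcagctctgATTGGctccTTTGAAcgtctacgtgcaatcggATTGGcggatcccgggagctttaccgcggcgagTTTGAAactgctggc
Bub1b: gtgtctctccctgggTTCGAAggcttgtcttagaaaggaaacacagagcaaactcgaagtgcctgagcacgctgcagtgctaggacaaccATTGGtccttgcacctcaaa
Cenpn: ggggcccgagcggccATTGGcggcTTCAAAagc
Kif11: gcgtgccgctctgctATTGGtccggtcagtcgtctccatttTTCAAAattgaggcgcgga
Mki67: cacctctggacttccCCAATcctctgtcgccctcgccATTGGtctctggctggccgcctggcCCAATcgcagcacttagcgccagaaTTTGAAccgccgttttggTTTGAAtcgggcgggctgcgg
Cdc20: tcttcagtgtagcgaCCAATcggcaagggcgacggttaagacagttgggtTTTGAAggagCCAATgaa
Espl1: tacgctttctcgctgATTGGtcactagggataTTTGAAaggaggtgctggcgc

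Of the 49 members with a matched promoter, 38 (77.6%) held a CHR, against 21.7% of all 27025 genes with a RefSeq promoter. A gene counted as holding a motif if any of its promoters did. A CCAAT box was found in 37 (75.5%, against 41.1%), at least 2 of them in 23 (46.9%, against 13.3%), and both a CHR and a CCAAT box in 33 (67.3%, against 9.65%). An E2F-like site was found in 12 (24.5%, against 10.9%). It was searched on both strands, free to overlap the other motifs, as TTGGCGC or, with its middle letters changed, as TTCCCGC, or further as TTGCCGC, or lastly as TTCGCGC. Members with and without a CHR had about the same median log2 fold change, -1.06 against -0.997 at day 1 and -0.89 against -0.88 at day 3. Among the 4 members not called in enteroids, Kif23 held both motifs, Anln a CHR alone, Fzr1 a CCAAT box alone and Pttg1 neither. A match describes the letters of the promoter and is not evidence of binding in these cells.

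The kinases, cyclins and phosphatases that start mitosis were called lower for 8 of 8 members at both days, with medians of -1.02 and -0.83. The position of each gene below is given on GRCm38. For Cdk1 (ENSMUSG00000019942.13, chromosome 10, 69335146 to 69352938, minus strand), the kinase that drives entry into mitosis, the WT libraries of mice 1, 2 and 3 had 3023, 2992 and 2938 normalized counts at day 1 and the libraries labelled Mtgr1-/- had 1397, 1657 and 1044. At day 3 they had 2895, 3279 and 3270.01 against 1947, 1168 and 1669.6. The groups did not overlap on either day, and the least reduced library was mouse 2 at day 1 but mouse 1 at day 3. For Ccnb1 (ENSMUSG00000041431.16, chromosome 13, 100778650 to 100786570, minus strand), the cyclin that activates CDK1, WT had 3445, 3138 and 3666 at day 1 where the libraries labelled Mtgr1-/- had 1790.1, 1929.7 and 1393, which is a difference of -1.01 ± 0.13 (SE) (adjusted p = 0.000655, limma). At day 3 the difference was -0.80 ± 0.14 (SE) (adjusted p = 0.00185, limma). Of the 50-base words of its transcripts, 40.6% also occur in other genes, among them the pseudogene Ccnb1-ps, so its count is less certain than that of Cdk1. Plk1, a kinase of centrosome maturation and spindle assembly, had 2472, 2689 and 2505 in WT and 945, 1408 and 902 in the other group at day 1, and 2672, 2944 and 3170.3 against 1691, 1089 and 1569.7 at day 3. It had log2 fold changes of -1.26 ± 0.17 (SE) and -1.04 ± 0.16 (SE) (adjusted p = 0.000662 and 0.00105, limma). Aurka, the kinase of the spindle poles, was lower by a smaller amount, -0.93 ± 0.16 (SE) at day 1 and -0.68 ± 0.16 (SE) at day 3 (adjusted p = 0.00175 and 0.00727, limma). Cyclins A2 and B2 (Ccna2 and Ccnb2) had values of -1.02 and -0.98 at day 1 and -0.84 and -0.83 at day 3.

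The phosphatases that activate CDK1 stood at the ends of this group at day 1. At day 3 Cdc25c was again the least reduced, but Plk1 was the most reduced, at 49.5% of the WT mean. Cdc25b was then at 54.3%. Cdc25b (ENSMUSG00000027330.16, chromosome 2, 131186949 to 131198497, plus strand) had the most negative crypt value of all members, with 738, 681 and 610.1 in WT crypts and 532, 483 and 433 in the crypts labelled Mtgr1-/-. These groups did not overlap, but the difference of -0.49 ± 0.12 (SE) was not called (adjusted p = 0.0829, limma, 0.00864 to 0.292 over the alternatives). At day 1 it was -1.33 ± 0.15 (SE) (adjusted p = 0.000413, limma), among the 5 most negative members. Cdc25c had the weakest call of the 54. It had 374, 465 and 437 in WT and 362, 208 and 309 in the other group at day 3, a difference of -0.57 ± 0.20 (SE) (adjusted p = 0.0403, limma), and its call was lost at day 3 without any 1 of the WT mice or without mouse 2 or 3 of the other group (adjusted p = 0.0538 to 0.128, limma), and at day 1 without WT mouse 2 or WT mouse 3 (adjusted p = 0.0551 and 0.0651, limma). The day 3 call was also lost with quantile normalization, no trend, the replicate block, edgeR and DESeq2.

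The 5 members of the spindle assembly checkpoint were called lower on both days. Bub1b, the BUBR1 protein that inhibits CDC20, had 2604, 2569 and 2228 in WT and 983, 1368 and 787 in the libraries labelled Mtgr1-/- at day 1. This was 42.4% of the WT mean, and at day 3 it was 55.1%. Mad2l1, the MAD2 protein of the same inhibitor, had 1836, 1836 and 1861 against 966, 1177 and 816 at day 1 and 1969, 2195 and 2136 against 1287, 896 and 1215 at day 3. Its difference was thus nearly equal on both days, -0.92 ± 0.13 (SE) and -0.91 ± 0.14 (SE) (adjusted p = 0.000946 and 0.000919, limma), while in crypts it was -0.01 ± 0.11 (SE). Ttk, the kinase that recruits the checkpoint proteins, had a positive value in crypts of 0.18 ± 0.17 (SE), which was not called, and values of -1.02 and -0.98 in enteroids. Bub3, which carries BUB1 and BUBR1 to the kinetochore, was the least reduced of the 5, with 2285, 2201 and 2342 against 1427, 1594 and 1337 at day 1. Its difference of -0.65 ± 0.09 (SE) was still called (adjusted p = 0.000837, limma). Bub1 was at 46.3% of the WT mean at day 1 and at 52.7% at day 3.

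All 4 members of the chromosomal passenger complex, which corrects wrong attachments and later moves to the central spindle, were called lower on both days. Aurkb, its kinase, had 1468, 1587 and 1703 in WT and 654, 849.6 and 543 in the libraries labelled Mtgr1-/- at day 1, and 1681, 1844 and 1839 against 1073, 656 and 962 at day 3. The corresponding differences were -1.24 ± 0.16 (SE) and -1.02 ± 0.17 (SE) (adjusted p = 0.000654 and 0.00141, limma). Birc5 (survivin) was at -0.997 and -0.88, Incenp, the scaffold, at -1.15 and -0.80, and Cdca8 (borealin) at -0.90 and -0.64. The 4 subunits thus lay within a range of -1.24 to -0.90 at day 1.

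**Figure D3:**
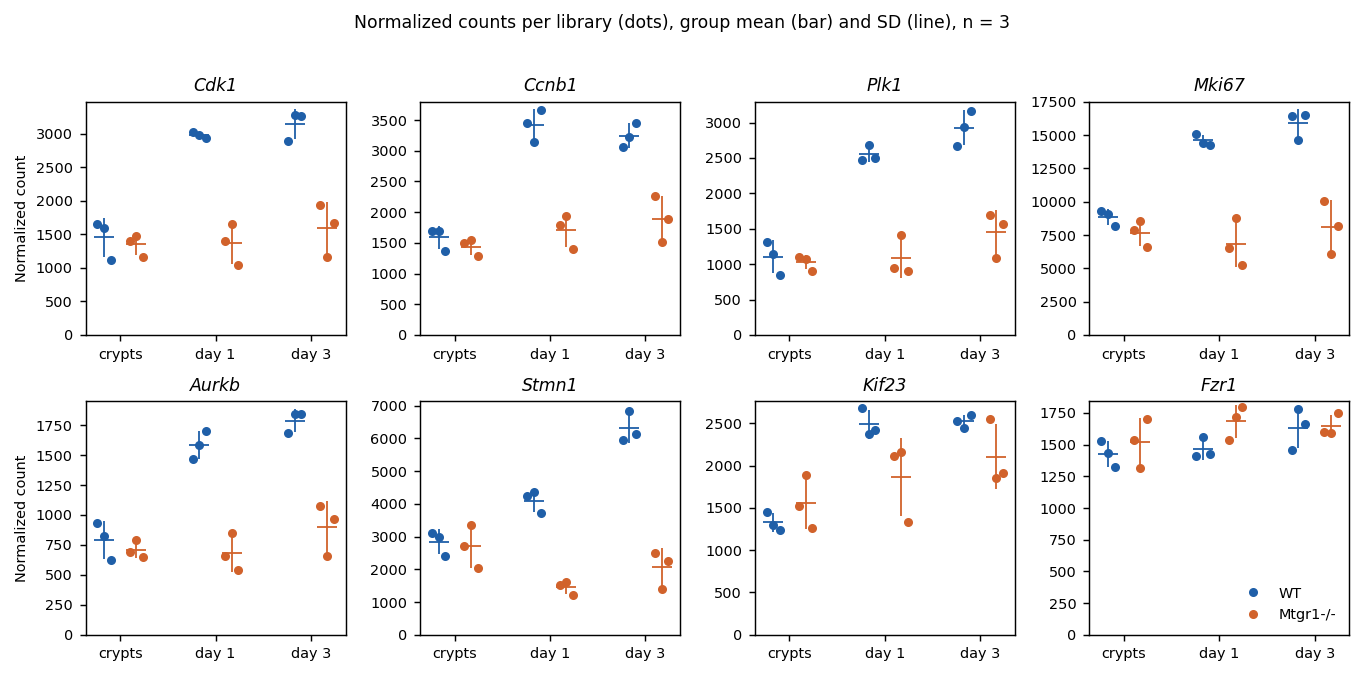
Normalized counts of 8 genes in each library (dots), with the group mean (bar) and SD (line, n = 3), for WT (blue) and the libraries labelled Mtgr1-/- (orange), by time point. In crypts the groups overlap for each of the 8 genes, in enteroids they are apart for Cdk1, Ccnb1, Plk1, Mki67, Aurkb and Stmn1, and Fzr1 overlaps at all time points.

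At the centromere and kinetochore, 9 of 9 members were called lower on both days, with medians of -0.99 and -0.84. Cenpa, the histone H3 variant of the centromere, had 1584, 1938 and 1672 against 920.1, 1139.8 and 700.4 at day 1, a difference of -0.93 ± 0.18 (SE) (adjusted p = 0.00288, limma). Cenpn (ENSMUSG00000031756.5, chromosome 8, 116921730 to 116941507, plus strand), which binds the CENPA nucleosome, was the most reduced of the 9, with 249.7, 283 and 304 in WT and 104, 128 and 68.4 in the libraries labelled Mtgr1-/- at day 1. The difference was -1.51 ± 0.24 (SE) at day 1 and -1.14 ± 0.22 (SE) at day 3 (adjusted p = 0.00135 and 0.00319, limma), and in crypts -0.04 ± 0.24 (SE). The 4 subunits of the NDC80 complex, which grips the microtubule, did not show a common value. Spc24 had -1.06 at day 1 and -1.17 at day 3, Nuf2 -1.16 and -1.02, Ndc80 -0.99 and -0.72, and Spc25 -0.68 and -0.68. At day 3, Spc24 stood at 717, 822 and 882 normalized counts in WT against 407, 279 and 401, without overlap. Spc25 stood at 589.8, 599 and 616 against 487, 277 and 391. The difference between these subunits was not tested. Cenpe, the kinetochore motor, had a day 3 value of -0.62 ± 0.13 (SE) (adjusted p = 0.00516, limma), and Cenpf and Cenpk had -0.80 and -0.90.

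Spindle motors and microtubule-binding proteins were called lower in 12 of 12 cases on both days. For Kif11 (ENSMUSG00000012443.4, chromosome 19, 37376403 to 37421859, plus strand), the kinesin that pushes the poles apart, the WT libraries had 3815, 4090.5 and 3817 and those labelled Mtgr1-/- 1722, 2154 and 1252 at day 1. Day 3 values were 4477, 4194 and 4531 against 2456, 1603 and 2329, and the differences were -1.23 ± 0.18 (SE) and -1.07 ± 0.15 (SE) (adjusted p = 0.00101 and 0.000719, limma). Stmn1 (ENSMUSG00000028832.11, chromosome 4, 134468320 to 134473843, plus strand), the microtubule-destabilizing protein stathmin, had the most negative value of all members at day 3, with 5961, 6849.96 and 6140.2 in WT and 2509.9, 1399 and 2260.2 in the libraries labelled Mtgr1-/-. At day 1 it had 4224, 4369.6 and 3712 against 1523, 1625 and 1225. Its differences were -1.50 ± 0.12 (SE) at day 1 and -1.66 ± 0.20 (SE) at day 3 (adjusted p = 0.000133 and 0.000302, limma). Stathmin is also made outside of mitosis, and 25.5% of its 50-base words occur in other genes. Tpx2, the activator of Aurora A on the spindle, was at -0.99 and -0.81. Of the 6 kinesins in this group, Kif22, the chromosome-arm motor, was the most reduced at day 1 (-1.30) and Kif18a, which limits microtubule length, the least (-0.94). Hmmr, a spindle-pole protein, was the least reduced of the 12 on both days, at -0.75 and -0.60.

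Chromosome structure and condensin genes were the most reduced role, with medians of -1.23 at day 1 and -1.04 at day 3 and calls for 8 of 8 members on both days. Hmgb2 (ENSMUSG00000054717.7, chromosome 8, 57511907 to 57515999, plus strand), a chromatin protein that bends DNA, had 4499.5, 4816 and 4211 in WT and 1429.7, 2005 and 1245 in the libraries labelled Mtgr1-/- at day 1, and 4803, 5704 and 5574 against 2327, 1692 and 2460.1 at day 3. It was at 34.6% of the WT mean at day 1 and 40.3% at day 3 (log2 fold changes of -1.56 ± 0.17 (SE) and -1.33 ± 0.15 (SE)), and 21.2% of its 50-base words occur in other genes. Top2a (ENSMUSG00000020914.17, chromosome 11, 98992943 to 99024189, minus strand), the topoisomerase that untangles sister chromatids, had 12033, 12243 and 12288 against 4773, 5897 and 3623 at day 1, without overlap. Its differences were -1.38 ± 0.16 (SE) and -1.17 ± 0.17 (SE) (adjusted p = 0.000459 and 0.000871, limma). Mki67 (ENSMUSG00000031004.8, chromosome 7, 135689784 to 135716361, minus strand), which coats mitotic chromosomes, had per-library values at day 3 of 16446, 14666 and 16527 and 10075, 6108 and 8178. The spread among its libraries was larger in the group labelled Mtgr1-/-, 8120.3 ± 1984 against 15879.8 ± 1052 in WT (SD, n = 3). Among the condensin subunits, Smc2 and Smc4, the core ATPases that are shared by both condensin complexes, were at -1.03 and -1.02 at day 1. The condensin I subunits Ncapd2, Ncapg and Ncaph were at -1.27, -1.19 and -1.27. At day 3, Ncaph had 2061, 2109.9 and 2161 in WT and 1073, 641 and 1018 in the other group, the third most negative value of that day (-1.25 ± 0.18 (SE)).

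The genes of anaphase onset were the least uniform. Cdc20, Ube2c and Espl1 were called lower on both days, and Pttg1 and Fzr1 on neither. Cdc20, which turns the APC/C on at anaphase, had 2754, 2716 and 2748 in WT and 1521, 2057 and 1246 in the libraries labelled Mtgr1-/- at day 1, and 2522, 3041 and 3098 against 2475, 1588 and 2079 at day 3. Its day 3 difference was -0.51 ± 0.16 (SE) (adjusted p = 0.0245, limma, 0.000814 to 0.0834 over the alternatives). The call of Cdc20 that day was lost without WT mouse 2 or WT mouse 3 (adjusted p = 0.0819 and 0.0834, limma), and also in the fit with no trend. Ube2c, the ubiquitin-conjugating enzyme of the APC/C, was at -1.05 and -0.88, and Espl1 (separase), which cuts cohesin, at -1.16 and -0.91. Pttg1 (ENSMUSG00000020415.16, chromosome 11, 43420250 to 43426251, minus strand) (securin), the inhibitor of separase, had 329, 318 and 282 in WT and 251, 255 and 282 in the other group at day 1, where its groups all but met. Its differences of -0.24 ± 0.12 (SE) and -0.24 ± 0.11 (SE) did not pass (adjusted p = 0.138 and 0.104, limma). Fzr1 (ENSMUSG00000020235.16, chromosome 10, 81366222 to 81378516, minus strand) (CDH1), the activator that keeps the APC/C on in late mitosis and G1, had 1407, 1559.96 and 1422 against 1536, 1714 and 1798 at day 1 and 1458, 1778 and 1666 against 1596, 1593 and 1746 at day 3. Its groups overlapped at all 3 time points, and its day 1 difference of 0.20 ± 0.09 (SE) did not pass (adjusted p = 0.0979, limma) and turned to -0.12 when libraries were scaled to their totals.

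In the central spindle and cytokinesis group, 5 of 7 members were called lower on both days. Racgap1, the GTPase-activating subunit of centralspindlin, had 2709, 2721 and 2832 in WT and 1319, 1586 and 1047 in the libraries labelled Mtgr1-/- at day 1, a difference of -1.08 ± 0.14 (SE) (adjusted p = 0.000699, limma). Its partner in that complex, Kif23 (ENSMUSG00000032254.10, chromosome 9, 61915905 to 61946774, minus strand), was less reduced, with 2687, 2370.1 and 2417 against 2108, 2162 and 1335 at day 1 and 2523, 2451 and 2600.1 against 2546, 1857 and 1919 at day 3. The groups did not overlap at day 1 and did at day 3, where mouse 1 of the group labelled Mtgr1-/- lay among the WT libraries. Neither difference passed, -0.45 ± 0.18 (SE) and -0.27 ± 0.12 (SE) (adjusted p = 0.0651 and 0.0832, limma, 0.012 to 0.169 and 0.0016 to 0.24 over the alternatives). Anln (ENSMUSG00000036777.8, chromosome 9, 22332012 to 22389188, minus strand) (anillin), the scaffold of the contractile ring, had 1787, 1659 and 1728 against 1277, 1537 and 778 at day 1 and 1729, 1659 and 1788 against 1773, 1118 and 1365 at day 3, again with mouse 1 among the WT libraries. Its differences were not called, at values of -0.58 ± 0.22 (SE) and -0.31 ± 0.15 (SE) (adjusted p = 0.0544 and 0.115, limma, 0.00784 to 0.127 and 0.00491 to 0.375 over the alternatives). Anln and Kif23 were both called lower at day 1 when the mouse number entered the fit as a block (adjusted p = 0.0465 and 0.0403, limma), which made 56 of 58 members. Without mouse 2 of the group labelled Mtgr1-/- both were called at day 1 (0.00784 and 0.0257), and without its mouse 1 both at day 3 (0.00613 and 0.00311). Ect2, which activates RhoA at the equator, was at -0.73 and -0.75, Prc1, which bundles the central spindle, at -1.06 and -0.81, and Kif20a and Kif20b at -1.16 and -1.06 at day 1. A gap between Racgap1 and Kif23 was not tested.

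In crypts, the 58 differences lay between -0.49 and 0.22, with 38 below 0, and none was called lower where 3.15% of 12980 genes were, or higher where 1.58% were. At an unadjusted p below 0.05, 2 of 58 members (Cdc25b and Ube2c) were lower and 0 higher with limma, where 9.92% of all genes were lower and 8.53% higher at that threshold. EdgeR and DESeq2 on recovered reads also called 0 members, but without WT crypt 2, whose reads were not recovered. The libraries did not overlap for 6 members, all lower (Cdc25b, Bub3, Nuf2, Spc24, Nusap1 and Ube2c), where 13.5% of all genes were lower without overlap. With precision weights per library, 4 were called lower, Cdc25b, Hmgb2, Spc24 and Ube2c, where 8.61% of all genes were. Ube2c had 2069, 1999 and 1717 in WT crypts against 1574, 1553 and 1482, a difference of -0.32 ± 0.10 (SE) (adjusted p = 0.125, limma). Hmgb2 had 3108, 3081 and 2661 against 2436, 2778 and 2041, which overlap. In each genotype, mouse 3 was the lowest crypt library, for 54 members in WT and 55 in the group labelled Mtgr1-/-. WT mouse 3 is also the library with high Ptprc, and its summed immune markers (16 of 16 in the table) were 17423, the top of a WT range that began at 2839, against 1103 to 2539 in the other group; their part in the crypt values was not tested. Without WT mouse 3 the crypt median was -0.16, without mouse 3 of the other group 0.03, and 0 members were called either way.

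Seen as a share of each library, the members took 3399, 3139 and 2645 normalized counts out of every 1000000 in the WT crypts of mice 1, 2 and 3, and 3170, 3318 and 2312 in the crypts labelled Mtgr1-/-. At day 1, the WT libraries were at 5548, 6106 and 5739 on this scale and the others at 2119, 3065 and 1703. At day 3, they were at 6362, 6297 and 6542 against 3774, 2167 and 3180. Relative to the crypts of the same mouse, the WT share was 1.63, 1.95 and 2.17 times as high at day 1 and 1.87, 2.01 and 2.47 times at day 3. In the libraries labelled Mtgr1-/-, it was 0.668, 0.924 and 0.737 times at day 1 and 1.19, 0.653 and 1.38 times at day 3. All 3 WT cultures thus held a larger share than their own crypts on both days, while those labelled Mtgr1-/- were all below their own crypts at day 1 and differed among themselves at day 3. A share depends on every other gene of the library, so these values are a description.

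**Figure D4:**
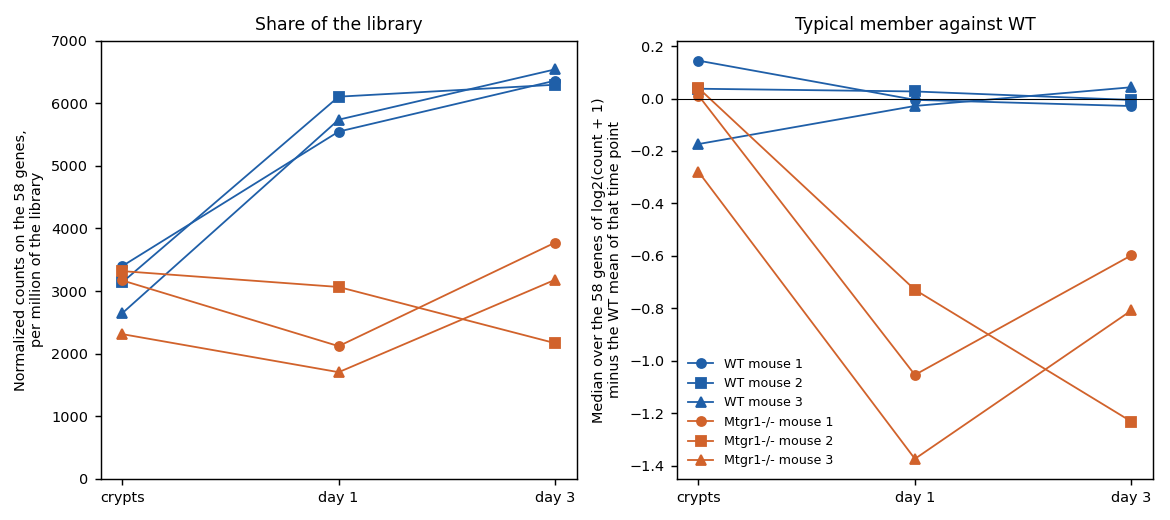
Left, normalized counts on the 58 genes out of every 1000000 of the library. Right, the median over the 58 genes of log2(normalized count + 1) minus the WT mean of the time point. Each line joins the 3 libraries of 1 mouse, WT in blue and Mtgr1-/- by label in orange. WT lines go from 2645 to 3399 in crypts to 6297 to 6542 at day 3, and the orange lines of mice 1 and 2 cross between day 1 and day 3.

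The same change was tested gene by gene as a difference of genotype differences between time points, in a limma fit of all 18 libraries that treats the mouse as random. Between crypts and day 1 it was more negative with a call for 53 of 58 members, where 21.1% of 12145 genes were, and less negative for 0, where 20.3% were. The exceptions were Cdc25c, Spc25, Ect2, Pttg1 and Fzr1. Stmn1 changed from its own crypts to day 1 by 0.44, 0.54 and 0.62 on the log2 scale in WT mice 1, 2 and 3, and by -0.83, -1.05 and -0.74 in the mice labelled Mtgr1-/-. For Cdk1 the WT changes were 0.87, 0.90 and 1.38 against -0.01, 0.16 and -0.16, so that its level was close to that of crypts in the latter. Kif23 was higher at day 1 than in the crypts of all 6 mice, by 0.89, 0.86 and 0.97 in WT and by 0.47, 0.19 and 0.07 in the others, and the difference between genotypes was called (-0.66 ± 0.25 (SE), adjusted p = 0.0416, limma), a call that was lost without any 1 of the WT mice (adjusted p = 0.109 to 0.12). Levels at different time points were normalized in separate tables, so a change in 1 mouse carries the scaling of both, and only the contrast between genotypes was tested.

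Between crypts and day 3, 45 members had a more negative difference with a call, where 15.1% of all genes did. That count was 18 without WT mouse 1, 10 without WT mouse 2 and 5 without WT mouse 3. It was 40, 34 and 50 without mice 1, 2 and 3 of the other group, and 15 when each mouse's own change was tested. Shares of all genes in these fits were not compared. Stmn1 had the most negative value (-1.57 ± 0.28 (SE), adjusted p = 0.00199, limma), followed by Ttk (-1.16 ± 0.25 (SE), adjusted p = 0.00469, limma). Both contrasts share the crypt libraries, so they are not independent.

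From day 1 to day 3, 52 of 58 members had a less negative genotype difference, but 0 were called in either direction with limma or edgeR, where 0.0247% of all genes were called higher and 0.00823% lower, and 0 members reached an unadjusted p below 0.05, where 3.91% of all genes did so as higher and 3.32% as lower. This count of 0 calls became 7 less negative without mouse 2 of the group labelled Mtgr1-/-, and the share of all genes in that fit was not compared. The median change was 0.18, and the changes of the mice overlapped between genotypes for all 58, as for 86.0% of all genes. Cdc25b had the largest one (0.43 ± 0.24 (SE), adjusted p = 0.745, limma), and Stmn1, Spc24 and Fzr1 were among the 6 that were more negative at day 3. The mice labelled Mtgr1-/- did not keep their order. At day 1, mouse 2 was the highest of its group for 56 members and mouse 3 the lowest for 55. At day 3, mouse 2 was the lowest for all 58 and mouse 1 the highest for 53. Relative to the WT mean, the median member stood at -1.05, -0.73 and -1.37 in mice 1, 2 and 3 at day 1 and at -0.60, -1.23 and -0.81 at day 3. The median coefficient of variation over the 58 genes was 5.14% in WT and 23.9% in the group labelled Mtgr1-/- at day 1, 5.01% and 22.1% at day 3, and 12.03% and 12.8% in crypts.

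A further 103 mitotic genes outside this group, listed by complex with earlier results of these data known, were compared in the same way. At day 1, 85 were called lower and 2 higher, with a median of -0.86, where 28.9% and 30.0% of all genes were called. At day 3 it was 87 and 1, with a median of -0.73, where 29.1% and 29.9% of all genes were called. In crypts it was 0 and 0 with limma. At an unadjusted p below 0.05 it was 9 lower and 2 higher of 103, where 9.92% and 8.53% of all genes were. DESeq2 called 1 lower and 1 higher, and its shares of all genes were not compared. Other kinetochore and centromere genes were called lower in 26 of 28 cases on both days. Cenpp, a subunit of the centromere network, had 284, 298 and 304 in WT and 106, 70.6 and 119 in the libraries labelled Mtgr1-/- at day 3 (-1.61 ± 0.20 (SE), adjusted p = 0.000369, limma). The most negative value at day 1 was that of Depdc1a, with 437, 451 and 451 against 94.5, 173 and 87.1 (-1.98 ± 0.25 (SE), adjusted p = 0.000598, limma). Fbxo5 (EMI1), the inhibitor of the APC/C, was at -1.50 and -1.26, and Ncapg2, a condensin II subunit, at -1.45 and -1.21. Cohesin and its regulators were called lower in 10 of 13 cases at day 1 (median -0.52), and core subunits of the APC/C in 7 of 14 (median -0.31), with Anapc2 higher (1747, 1702 and 1664 in WT against 2236, 2043 and 2515, 0.40 ± 0.10 (SE), adjusted p = 0.00769, limma). Zwint, a kinetochore protein, was called higher at day 1 (0.35 ± 0.10 (SE), adjusted p = 0.0215, limma). Both rises were lost when libraries were scaled to their totals. The 38 DNA replication genes, which act in S phase, were called lower in 36 cases at day 1 and 38 at day 3, with medians of -1.26 and -1.06, against -1.04 and -0.89 for the 58 mitosis and kinetochore genes; differences between lists were not tested.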

How the data were processed

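RNA was measured in 18 bulk libraries from 3 WT and 3 Mtgr1-/- mice at 3 time points, grouped and numbered by their labels. The authors made stranded mRNA libraries, sequenced single reads of 50 bases, trimmed them with fastp 0.20.0, quantified them with Salmon 1.3.0 against GENCODE transcripts and normalized gene counts with DESeq2 1.26.0. The deposited signal is a linear normalized count per library, 1 table per time point. The deposited log2 fold changes and their errors, the deposited score (a Wald statistic) and each deposited p-value come from comparisons made by the authors and were not used.

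Within each table, limma 3.58.1 (trend, R 4.3.3) compared the genotypes on log2(normalized count + 1) for genes whose mean reached 10, two-sided, with Benjamini-Hochberg adjustment over all genes tested. An exact permutation test of 1 gene, 3 against 3, cannot go below 0.1. Changes between time points were fitted over all 18 libraries by limma with a random mouse term (correlation within a mouse of -0.00481). Low values step by what 1 read is worth, which gave back reads, as whole multiples within 0.01, in 16 libraries, with 22035316 to 28621990 reads, and the other 2 (WT crypt 2, Mtgr1-/- day 3 mouse 2) were left out of the alternatives with edgeR 4.0.16 and DESeq2 1.42.0. The steps were tested on simulated data.

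The numbers of WT and Mtgr1-/- mice were checked for pairing by the correlation of same-numbered deviations from group means. These were 0.116, 0.231 and 0.216 at day 1, where every different-numbered pair was negative. Deviations from a group mean cancel within the group. Different-numbered pairs must thus be negative on balance once same-numbered ones are positive, and their sign is not separate evidence. In crypts they were 0.0764, 0.274 and 0.346, but WT mouse 1 correlated more with mouse 2 of the other group (0.201). At day 3 they were -0.00666, -0.00226 and -0.0156. Numbers were therefore taken to pair libraries at day 1 only. The day 1 differences, errors and 54 calls given are nonetheless those of the fit without pairs. The fit with the block called 56 members lower. In crypts, mice 2 and 3 correlated best with their own number, so pairing there is unclear. The choice rests on the data, not on a label.

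The members and lists were chosen with earlier results of these data known. Genes are named by role anchors, by the 5 most and least negative values at day 1 and day 3, by the 5 smallest p in crypts and between days, and by the other members of each role in brief. Alternatives were each library left out, pseudocounts of 0.1 and 8, other filters, median-ratio, quantile and (added after the data were seen) total scaling, no trend, array weights, the replicate block, per-mouse changes, no mouse effect and count tests. Promoters came from RefSeq. The deposited mean over libraries was not used.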

Additional observations from a re-analysis of the deposited data

Results flagged for a closer look

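These results differed between time points by a test of the genotype difference itself (limma on all 18 libraries). Between crypts and day 1, the difference became more negative for 53 of 58 members, where 21.1% of all genes did. The members with the smallest p were Hmgb2 (-1.26, adjusted p = 0.00179), Kif4, a chromosome-arm motor (-1.09, adjusted p = 0.00199), Stmn1 (-1.41, adjusted p = 0.00241), Ttk (-1.20, adjusted p = 0.00267) and Incenp (-1.11, adjusted p = 0.00297, limma for all 5). Each of the 3 mice labelled Mtgr1-/- had a more negative change than each WT mouse for 56 of the 58 members, where 27.9% of all genes did so, Pttg1 and Fzr1 being the exceptions.

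Between crypts and day 3, the same held for 45 members, where 15.1% of all genes did. The smallest p were those of Stmn1 (-1.57, adjusted p = 0.00199), Ttk (-1.16, adjusted p = 0.00469), Mad2l1 (-0.90, adjusted p = 0.00509), Hmgb2 (-1.03, adjusted p = 0.0068) and Spc24 (-0.95, adjusted p = 0.00711, limma for all 5). The changes of the mice did not overlap for 53 members, all more negative, where 23.1% of all genes did so, the others being Cdc25b, Cdc25c, Cdc20, Pttg1 and Fzr1. The count of 45 fell to 5 without WT mouse 3, the crypt library with high Ptprc, whose part in this was not tested, and to 10 and 18 without WT mouse 2 and WT mouse 1. Shares of all genes in these fits were not compared.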

How the results depend on the processing

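No result changed direction with a call under any alternative. The count of members called lower stayed at 53 to 57 at day 1 and 52 to 57 at day 3, with 0 called higher. Leaving out 1 library at a time gave 53 to 56 at day 1, 52 to 56 at day 3 and 0 in crypts, with medians of -1.20 to -0.89, -0.9998 to -0.70 and -0.16 to 0.03. Array weights called 4 members and 8 of the other mitotic genes lower in crypts, where 8.61% of all genes were called lower. Of the other mitotic genes, array weights called 2 higher there, and DESeq2 called 1 lower and 1 higher. Shares of all genes for these last counts were not compared. Scaling to library totals moved the median of all genes by -0.33 at day 1 and -0.20 at day 3 and that of the members to -1.36 and -1.09, which is -1.03 and -0.89 relative to all genes; it gave 5614 calls lower and 2200 higher at day 1 and 5089 and 2748 at day 3, against 3637 and 3776, and 3719 and 3826. Of the other mitotic genes, those called higher at day 1 numbered 1 with quantile normalization, 0 with totals and 1 to 2 with 1 library left out, and at day 3 0 with totals and 2 with array weights. The 53 members that changed between crypts and day 1 became 43 to 56 with 1 mouse left out. The 45 between crypts and day 3 became 5 to 50, 15 with per-mouse differences and 14 with edgeR. The edgeR fit lacked WT crypt 2 and Mtgr1-/- day 3 mouse 2. The 0 members less negative at day 3 than at day 1 became 7 without Mtgr1-/- mouse 2 and stayed at 0 without any other mouse. For the alternatives between time points, shares of all genes were not compared. The causes were not tested.

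With the replicate block, 56 members were called lower at day 1 (Anln and Kif23 added), 53 at day 3 (Cdc25c lost), 0 in crypts, and 54 and 47 changed from crypts to day 1 and day 3; the block changed no other call of a member at a time point. Same-numbered libraries were not taken as pairs in crypts, where pairing was unclear, or at day 3. Within a day of culture, calls of Anln, Kif23, Pttg1, Cdc25c, Cdc20 and Ect2 depended on the setting. In crypts, Cdc25b, Hmgb2, Spc24 and Ube2c were called with array weights only.

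With 3 mice per genotype, differences under about the spread of the libraries could not be seen in crypts, and a p that misses the threshold does not show equal levels. p-values measure the spread between these mice only.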
